A study of Mus musculus with 4 samples.

Results

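The genes described here are 10 kinases, adaptors and regulators that act just below the T cell receptor: Fyn, Zap70, Txk, Lat, Trat1, Lcp2, Rasgrp1, Prkcq, Themis and Tespa1. They were chosen by name, and each had 1 probe set that carried only its symbol, so all 10 were measured among 19938 named genes. The study asked whether the transcription factor Tcf1 can drive progenitors into the T lineage without a Notch signal. Transcript levels were read on Affymetrix whole-transcript arrays, 1 per sample, in wild-type C57BL/6 mouse cells that all began as bone marrow LMPPs (lymphoid-primed multipotent progenitors, sorted without lineage markers, positive for Sca and Kit and high for Flt3).

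LMPPs were 1 pooled sample, taken after 48 hours in medium with serum, IL-3 and IL-6 at 10 ng/ml each and SCF and Flt3 ligand at 20 ng/ml each, so they were not freshly isolated cells. Tcf1 cells were 2 samples labelled as biological replicates, grown from LMPPs that had received a retrovirus for Tcf1 with the VEX marker and were then kept on OP9, a marrow stromal line. Control cells were 1 sample, from LMPPs that had received the VEX vector alone and were kept on OP9 carrying the Notch ligand DL4. Both cultures held IL7 (1 ng/ml) and Flt3 ligand (5 ng/ml), passed through the same stimulation medium and retroviral step, and were sorted on day 10 as live CD45.2+ cells without Mac1 or Gr1 and with Thy1 and CD25. Vector and stroma therefore cannot be told apart in Tcf1 against control cells, nor can culture time, stroma, virus and gate in either culture against LMPPs.

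As background, engagement of the T cell receptor leads Src family kinases such as Fyn and Lck to phosphorylate the CD3 chains, to which Zap70 then binds. Zap70 phosphorylates the membrane scaffold Lat and the cytosolic adaptor Lcp2, and these assemble a complex in which Tec family kinases such as Txk activate phospholipase C. The diacylglycerol so formed recruits Rasgrp1, which loads Ras with GTP, and Prkcq, the theta form of protein kinase C, which leads to NF-kappaB. Trat1 is a transmembrane adaptor bound to the receptor, while Themis and Tespa1 are needed for thymocytes to mature past receptor-dependent selection. Lck is not analysed here.

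Signal is given on the log2 scale of the deposited values, where a step of 1 is a 2-fold difference. The median of the named genes was 7.47 to 7.59 by array and their 25th percentile 6.12 to 6.21. The number of arrays limits the precision: only the Tcf1 pair gave a spread, which was applied to the LMPP and the control array as well. The gates could be seen in the data, since Il2ra, which encodes CD25, read 6.88 in LMPPs and between 12.91 and 13.64 in the sorted cells. Flt3, which marks the input cells, read 11.91 in LMPPs, 10.97 and 11.03 in Tcf1 cells and 6.75 in control cells. The Mac1 gene Itgam read 8.25, 7.44, 7.70 and 7.03 in the same order. Tcf7, the gene for Tcf1, had no probe set of its own name, so the transduced gene could not check the labels. Of 7 T cell markers, 5 rose from LMPPs to Tcf1 cells, against 1.75% of all genes. Lower than in control cells were 5 of these markers, against 2.49% of all genes (limma, adjusted p under 0.05). Their summed linear signal was 1054 in LMPPs, 7749 and 8802 in Tcf1 cells and 23389 in control cells. Thy1, on which both cultures were sorted, is among the 7, so its rise was set by the gate. At 12.38 and 12.53 in Tcf1 cells it had the highest reading of the 7 there, and so the largest part of their sum. Cd3e (adjusted p = 0.9, limma) and Cd3d (adjusted p = 0.836, limma) did not rise from LMPPs past the test. In such bulk samples, more T lineage cells and more RNA per cell cannot be told apart.

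Across the 4 arrays the 10 genes fell into a few patterns. Rasgrp1 and Txk were low in LMPPs and much higher in both cultures. Trat1, also low in LMPPs, and Lat were intermediate in Tcf1 cells, and Prkcq and Themis were high in control cells alone. Lcp2 and Tespa1 varied less than these genes, with the highest reading in control cells, 1.22 and 0.67 above LMPPs. Fyn and Zap70 were not raised in either culture. Replicate 2 of the Tcf1 cells read higher than replicate 1 for 10 of 10 genes, as it did for 67.9% of all genes. The gap ran from 0.07 for Themis to 0.67 for Zap70, with a median of 0.22 for these genes and 0.08 over all genes.

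**Figure D1:**
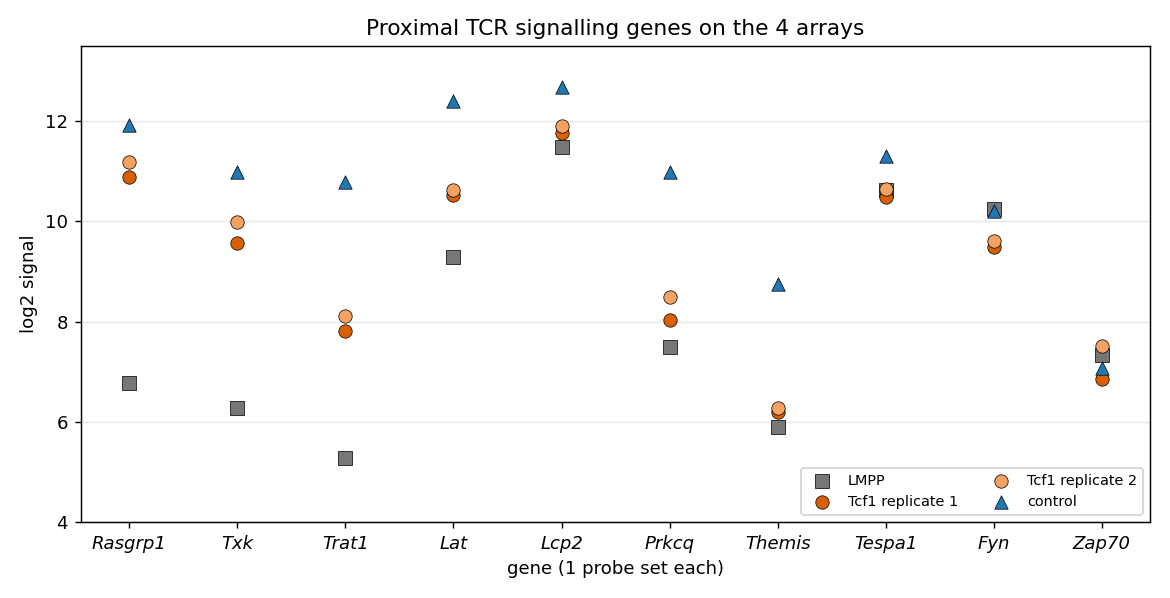
Log2 signal (vertical axis) of the 10 genes on the LMPP array (grey squares), the 2 Tcf1 arrays (orange circles) and the control array (blue triangle). For Rasgrp1, Txk, Trat1, Lat, Lcp2, Prkcq and Themis both Tcf1 arrays lie between the LMPP and the control array; distances within a gene can be read, while the heights of different genes cannot be compared.

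The first comparison, of Tcf1 cells with LMPPs, sets the T lineage cells grown without Notch ligand against their input. Of the 10 genes, 4 rose, against 1.75% of all genes that were higher, and 0 of 10 fell, against 1.31% that were lower and 3.06% in either direction (limma, adjusted p under 0.05; at an unadjusted p under 0.05, 5 were higher, against 5.33% of all genes, and 1 was lower, against 9.22%). The genes were chosen with earlier results of these data known, so this share is a description. Their median difference was 0.57, beside 0.0047 for all genes.

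Among the enzymes, Rasgrp1, the Ras activator, had the largest difference. It read 6.78 in LMPPs, 10.89 and 11.18 in Tcf1 cells and 11.92 in control cells. Both Tcf1 arrays thus lay far above the LMPP array and close below the control array. Rasgrp1 rose by 4.26 (SE 0.19, a 19.1-fold difference, adjusted p = 0.000222, limma), which ranked 7 among all genes. Txk, the Tec family kinase, read 6.28 in LMPPs, 9.56 and 9.98 in Tcf1 cells and 10.98 in control cells. It rose by 3.49 (SE 0.21, 11.2-fold, adjusted p = 0.000648, limma), with both replicates on the same side.

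Prkcq, the kinase that diacylglycerol recruits as it does Rasgrp1, behaved otherwise. Prkcq read 7.49 in LMPPs, 8.04 and 8.49 in Tcf1 cells and 10.99 in control cells. Its difference from LMPPs was 0.78 (95% interval 0.26 to 1.30) and did not pass over all genes (adjusted p = 0.143, limma). It did pass after median centring (0.74, adjusted p = 0.04, limma) and over genes above the 25th percentile of mean signal (adjusted p = 0.0362, limma). Zap70, the kinase that binds the phosphorylated CD3 chains, read 7.34 in LMPPs, 6.85 and 7.52 in Tcf1 cells and 7.08 in control cells. The Tcf1 replicates enclosed the other arrays, and the difference from LMPPs was -0.16 (95% interval -0.81 to 0.50, adjusted p = 0.917, limma). Fyn read 10.25 in LMPPs, 9.48 and 9.61 in Tcf1 cells and 10.21 in control cells. Both Tcf1 arrays lay below both other groups. The difference of -0.70 from LMPPs did not pass (95% interval -1.10 to -0.31, adjusted p = 0.0884, limma), although it did after median centring (-0.74, adjusted p = 0.0205, limma) and over genes above the 25th percentile (adjusted p = 0.0321, limma).

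Among the adaptors, Trat1, which sits in the membrane beside the receptor, read 5.28 in LMPPs, 7.81 and 8.12 in Tcf1 cells and 10.79 in control cells. The LMPP reading lay below the 25th percentile of genes on its array. Trat1 rose by 2.69 (SE 0.19, 6.44-fold, adjusted p = 0.00109, limma). Lat, the scaffold, read 9.29 in LMPPs, 10.52 and 10.62 in Tcf1 cells and 12.40 in control cells. Both Tcf1 arrays thus lay between the LMPP and the control array. It rose by 1.28 (SE 0.16, 2.43-fold, adjusted p = 0.00972, limma).

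Lcp2, the partner of Lat, read 11.48 in LMPPs, 11.77 and 11.91 in Tcf1 cells and 12.69 in control cells. Its difference of 0.37 from LMPPs did not pass (95% interval -0.03 to 0.76, adjusted p = 0.396, limma). Themis read 5.89 in LMPPs, 6.19 and 6.27 in Tcf1 cells and 8.76 in control cells. The LMPP reading lay below the 25th percentile of genes, as did that of Tcf1 replicate 1, and the difference was 0.34 (95% interval -0.04 to 0.73, adjusted p = 0.424, limma). Tespa1 read 10.63 in LMPPs, 10.49 and 10.65 in Tcf1 cells and 11.30 in control cells, with a difference of -0.06 (95% interval -0.47 to 0.34, adjusted p = 0.952, limma). When all 35399 probe sets, named or not, entered the fit, none of the 10 genes passed in either comparison with Tcf1 cells. The lowest adjusted p was then 0.149 against LMPPs and 0.13 against control cells (limma), while 6 and 9 of the genes, and 3317 and 3702 of the probe sets, had an unadjusted p under 0.05.

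**Figure D2:**
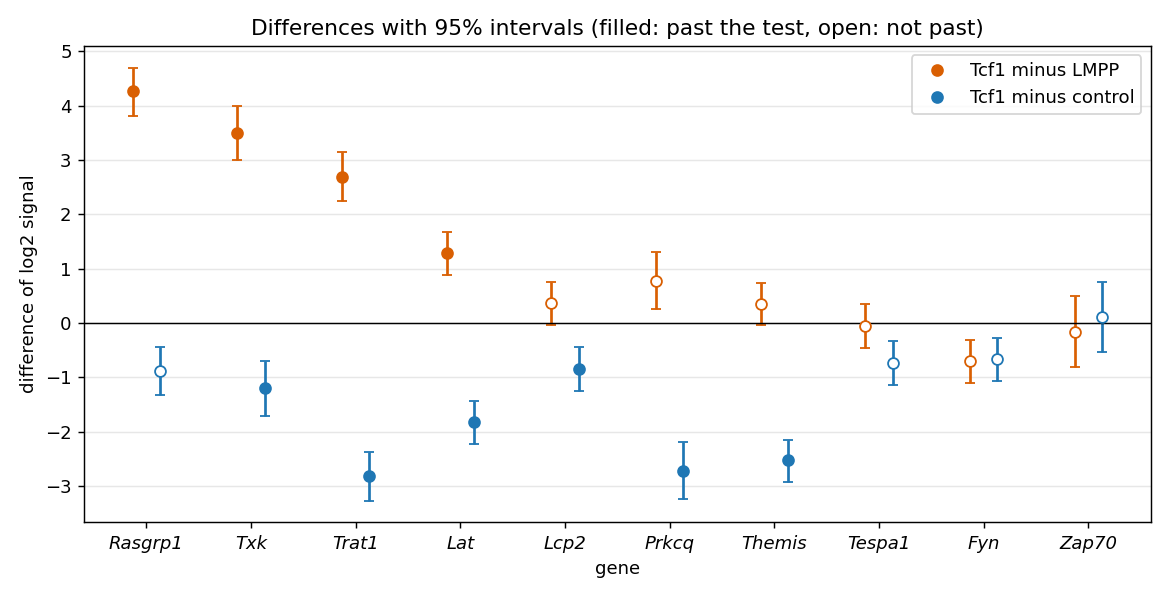
Difference of log2 signal (vertical axis) between Tcf1 cells and LMPPs (orange) and between Tcf1 and control cells (blue) for each gene, with 95% intervals from the limma fit that are not adjusted for the number of genes. Filled points passed at an adjusted p under 0.05: 4 genes above 0 against LMPPs and 6 genes below 0 against control cells.

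The second comparison sets Tcf1 cells beside control cells, grown with Notch ligand. Of the 10 genes, 6 were lower in Tcf1 cells, against 2.49% of all genes, and 0 were higher, against 1.9% of all genes and 4.38% in either direction (limma, adjusted p under 0.05; at an unadjusted p under 0.05, 9 were lower, against 8.37% of all genes, and 0 higher, against 5.72%). The median difference was -1.04, beside 0.02 for all genes. The comparison uses the same Tcf1 arrays as the one with LMPPs, so the values of both are not independent.

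The largest differences were those of Trat1 at -2.82 (SE 0.19, 7.06-fold lower, adjusted p = 0.000696, limma) and Prkcq at -2.72 (SE 0.22, 6.60-fold lower, adjusted p = 0.00122, limma). Themis differed by -2.53 (SE 0.16, 5.79-fold lower, adjusted p = 0.000575, limma). Lat followed with -1.83 (SE 0.16, adjusted p = 0.00195, limma), Txk with -1.20 (SE 0.21, adjusted p = 0.0259, limma) and Lcp2 with -0.85 (SE 0.17, adjusted p = 0.0387, limma). In each of these 6 genes neither Tcf1 array reached the control reading. Txk, Trat1 and Lat passed in both comparisons, higher than in LMPPs and lower than in control cells, as 0.286% of all genes did.

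Rasgrp1 was at the edge of the threshold, with a difference of -0.88 (SE 0.19, adjusted p = 0.0509, limma). It passed under 5 of the 6 tested alternatives, at -0.93 after median centring (adjusted p = 0.0066, limma). Of these alternatives, only renewed quantile normalization and median centring changed its difference. Tespa1 differed by -0.74 (95% interval -1.14 to -0.34, adjusted p = 0.0683, limma) and passed after median centring (-0.78, adjusted p = 0.0134, limma), over genes above the 25th percentile (adjusted p = 0.0214, limma) and with a mean-dependent prior (adjusted p = 0.015, limma). Fyn differed by -0.66 (95% interval -1.06 to -0.27, adjusted p = 0.0911, limma) and passed after median centring (-0.70, adjusted p = 0.0216, limma) and over genes above the 25th percentile (adjusted p = 0.0375, limma). Zap70 differed by 0.11 (95% interval -0.54 to 0.76, adjusted p = 0.956, limma).

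Control cells and LMPPs, 1 array each, have no test. At least 2-fold higher in control cells were 7 of the 10 genes, against 3.17% of all genes, and none was at least 2-fold lower, against 2.36%, with 5.53% of all genes in either direction. Trat1 was higher by 5.51 (45.5-fold), Rasgrp1 by 5.14 (35.3-fold), Txk by 4.69 (25.9-fold), Prkcq by 3.50 (11.3-fold), Lat by 3.11 (8.66-fold), Themis by 2.87 (7.33-fold) and Lcp2 by 1.22 (2.32-fold). Trat1, Rasgrp1 and Txk ranked 6, 7 and 11 among all genes by this difference. Tespa1 was higher by 0.67, while Fyn (-0.04) and Zap70 (-0.26) read close to their LMPP values.

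For these 7 genes the place of the Tcf1 cells between the other arrays was expressed as a share of the log2 distance from LMPP to control. Rasgrp1 had covered 82.8% of it (80.0% and 85.6% in the replicates), Txk 74.3% (69.9% and 78.8%), Trat1 48.8% (46.0% and 51.6%) and Lat 41.2% (39.5% and 42.8%). Lcp2 had covered 30% (24.4% and 35.7%), Prkcq 22.3% (15.8% and 28.7%) and Themis 11.8% (10.6% and 13.1%). The replicate ranges of neighbouring genes in this order did not overlap, except those of Lcp2 and Prkcq. Over all 632 genes at least 2-fold higher in control cells the median share was 38.6%, and the middle 50% of them, between the 25th and the 75th percentile, lay from 13.4% to 65.9%. Rasgrp1 and Txk lay above that range and Themis below it, while Lat, Trat1, Lcp2 and Prkcq lay inside. For all 7 genes both Tcf1 arrays lay between LMPP and control, which also held for 69.1% of the 632 genes and for 21.1% of all genes. Of the same 632 genes, 32% rose from LMPPs to Tcf1 cells, beside 4 of these 7, and 54.3% were lower in Tcf1 than in control cells, beside 6 of these 7. Each share rests on a single LMPP and a single control array, and it is a description without a test.

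**Figure D3:**
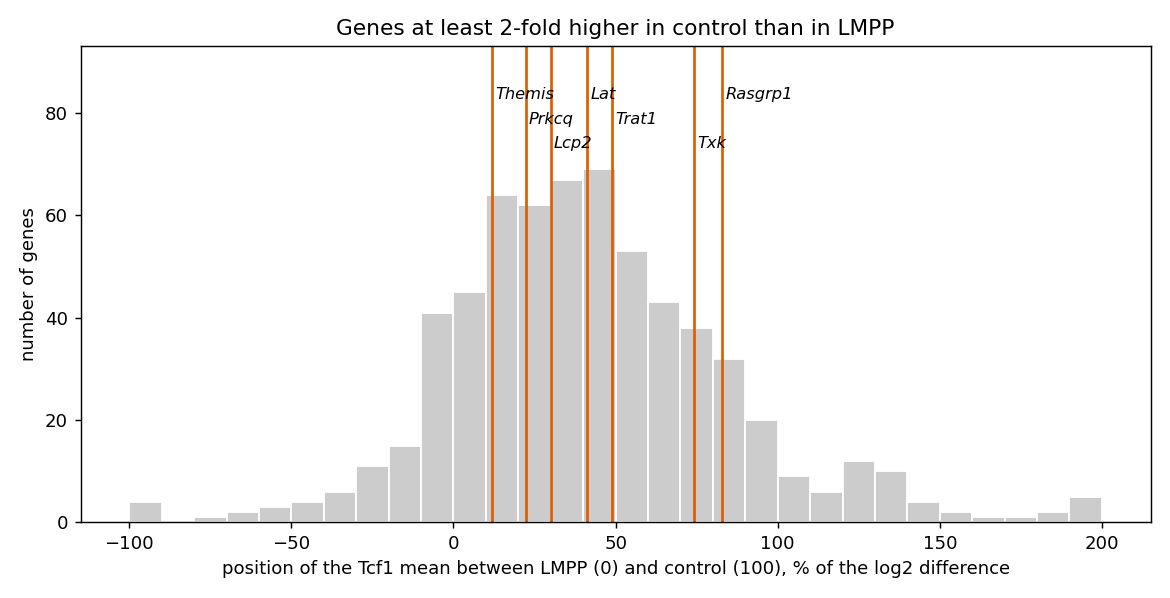
Number of genes (vertical axis) by the share of the LMPP-to-control log2 distance reached by the mean of the Tcf1 arrays (horizontal axis, in percent), for the 632 genes at least 2-fold higher in the control than in the LMPP array. Genes beyond the ends (4 below and 5 above) are counted in the outermost bars. Vertical lines mark the 7 genes named, from Themis at 11.8% to Rasgrp1 at 82.8%.

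Promoter sequence is shown for the letters that Tcf1 and its relatives are known to bind, since Tcf1 was the factor supplied. RefSeq windows (GRCm38.p6, 250 bases before to 50 after a transcript start) were found for 9 of the 10 genes, with several starts for Txk, Zap70 and Themis, and none was at hand for Tespa1. The TCF/LEF core, searched as CTTTGA or CTTTGT on both strands, was present in at least 1 window of 6 genes: Rasgrp1, Txk, Trat1, Lcp2, Zap70 and Fyn. It was present in 31.2% of all 32851 windows and for 34.5% of 27025 genes. The 30 bases around 7 of the matches are shown 5′ to 3′ on the gene's strand, with the core in capitals, so that ACAAAG and TCAAAG are the core on the other strand.
Rasgrp1, chr2:117342852-117342881, minus strand, core 9 bases past the start: cgctcgcacaaaCTTTGTgcctgcgggtga
Txk, chr5:72752952-72752981, minus strand, core 192 bases before the start: tctgtgatttctTCAAAGtgttttctagac
Trat1, chr16:48772265-48772294, minus strand, 220 bases before the start: ttcacacctttgCTTTGAttctgcattttt
Trat1, chr16:48772097-48772126, minus strand, 52 bases before the start: gtttataactgaACAAAGtacacacaaaag
Lcp2, chr11:34046851-34046880, plus strand, 65 bases before the start: tatggtgcccagCTTTGAgtgtctgtaata
Zap70, chr1:36761765-36761794, plus strand, 21 bases before the start: agcattttgttgCTTTGAcgtcaacttcaa
Fyn, chr10:39369691-39369720, plus strand, 96 bases before the start: cctcagcgggccCTTTGAtagggcagaaag

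These letters were present in the genes with the largest differences from LMPPs (Rasgrp1, Txk and Trat1) and equally in Zap70 and Fyn, which did not rise. They were not in the windows of Lat, which rose, nor in those of Prkcq and Themis. Other cores were less common: the GATA core AGATAA was found for Txk and Lcp2 (2 of 9 genes, against 12.7% of all genes) and the Runx core TGTGGT for Txk, Trat1, Lat and Zap70 (4 of 9, against 18.9%). The Ets core CAGGAAGT was found for 0 of 9 genes, against 3.86% of all genes. A match is a description of the letters and not evidence of binding. Windows also differed in base composition, from 0 CpG in the 250 bases before the Lcp2 start and 1 before that of Trat1 to 30 before that of Prkcq, with a median of 6 over all windows.

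The genes with profiles most like these over the 4 arrays were found by the distance between log2 profiles, each centred on its own mean. Closest to Rasgrp1 was Thy1, the sort marker (distance 0.31, with 8.13, 12.38, 12.53 and 12.98 in LMPP, Tcf1 replicates 1 and 2 and control), followed by Psg17 (0.47). Closest to Txk were Fam169b (0.40) and Psg17 (0.42). Trat1 was most like Fam20a (0.28) and Ctla4 (0.53), an inhibitory receptor of T cells. Lat was most like Aqp11, an aquaporin (0.22), and Dpp4, a surface peptidase (0.25). Closest to Themis were Dzip1 (0.13) and Sidt1 (0.27), and closest to Prkcq were Bpifc (0.40) and Klhl4 (0.43). For Lcp2, Tespa1, Fyn and Zap70 the nearest profiles lay within 0.10.

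Relatives of these genes were examined next, since the families hold forms used in B cells, mast cells and myeloid cells. Of 20 measured relatives, 4 rose and 4 fell between LMPPs and Tcf1 cells, against 1.75% and 1.31% of all genes (limma). In Tcf1 cells 4 were higher and 6 lower than in control cells, against 1.9% and 2.49% of all genes (limma). The relatives thus had no common direction.

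The Ras activators moved in both directions. Rasgrp2 read 10.55 in LMPPs, 9.20 and 9.42 in Tcf1 cells and 10.65 in control cells, and it fell by 1.24 from LMPPs to Tcf1 cells (SE 0.18, adjusted p = 0.0142, limma). Rasgrp3, a form prominent in B cells, read 6.68 in LMPPs, 8.72 and 9.17 in Tcf1 cells and 6.10 in control cells. It rose by 2.27 from LMPPs (SE 0.22, adjusted p = 0.0032, limma) and was 2.84 higher than in control cells (adjusted p = 0.00102, limma), so it was raised in Tcf1 cells and not in control cells, while Rasgrp1 was raised in both. Rasgrp4, known from mast cells and other myeloid cells, read 8.22, 9.03, 9.29 and 7.88 in the same order. It was 0.94 higher than in LMPPs (adjusted p = 0.0467, limma) and 1.27 higher than in control cells (adjusted p = 0.0118, limma).

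Among protein kinases C, Prkca (2.58, adjusted p = 0.00136, limma) and Prkch (1.51, adjusted p = 0.00788, limma) rose from LMPPs to Tcf1 cells. Prkcq, higher by 0.78, did not pass over all genes, and the contrast between these genes was not tested. Both Prkca and Prkch were lower than in control cells, by 0.99 and 1.10. Prkce fell by 1.48 from LMPPs (adjusted p = 0.00499, limma). Prkcb was 1.24 lower in Tcf1 than in control cells, and Prkcd, a form abundant in myeloid and B cells, was 0.83 higher (adjusted p = 0.0422, limma). Of the Tec family, Tec was 0.83 lower than in control cells and Btk, the form of B and myeloid cells, was 1.06 higher (adjusted p = 0.017, limma), with neither differing past the test from LMPPs. Blk, a Src family kinase of B cells and some T cells, read 7.53 in LMPPs, 7.30 and 7.63 in Tcf1 cells and 10.84 in control cells, a difference of -3.38 between the cultures (SE 0.19, adjusted p = 0.000396, limma).

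Of the relatives of the adaptors, Lat2 and Clnk fell. Lat2, the counterpart of Lat in B cells and mast cells, read 10.87 in LMPPs, 9.28 and 9.43 in Tcf1 cells and 9.94 in control cells, and it fell by 1.52 (SE 0.17, adjusted p = 0.00545, limma) where Lat rose. Clnk, a mast cell relative of Lcp2, read 9.97 in LMPPs, 8.06 and 8.43 in Tcf1 cells and 7.92 in control cells, and it fell by 1.73 (SE 0.20, adjusted p = 0.00692, limma). Themis2, the counterpart of Themis in B and myeloid cells, was 0.75 higher in Tcf1 than in control cells without passing (adjusted p = 0.0582, limma), though it passed under 4 of the alternatives. Syk, the relative of Zap70, differed by -0.31 from LMPPs and by -0.11 from control cells, neither past the test. The remaining relatives, Bmx, Fgr, Src, Yes1 and Blnk, passed in neither comparison, with differences from LMPPs between -0.43 for Fgr and 0.26 for Blnk.

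**Figure D4:**
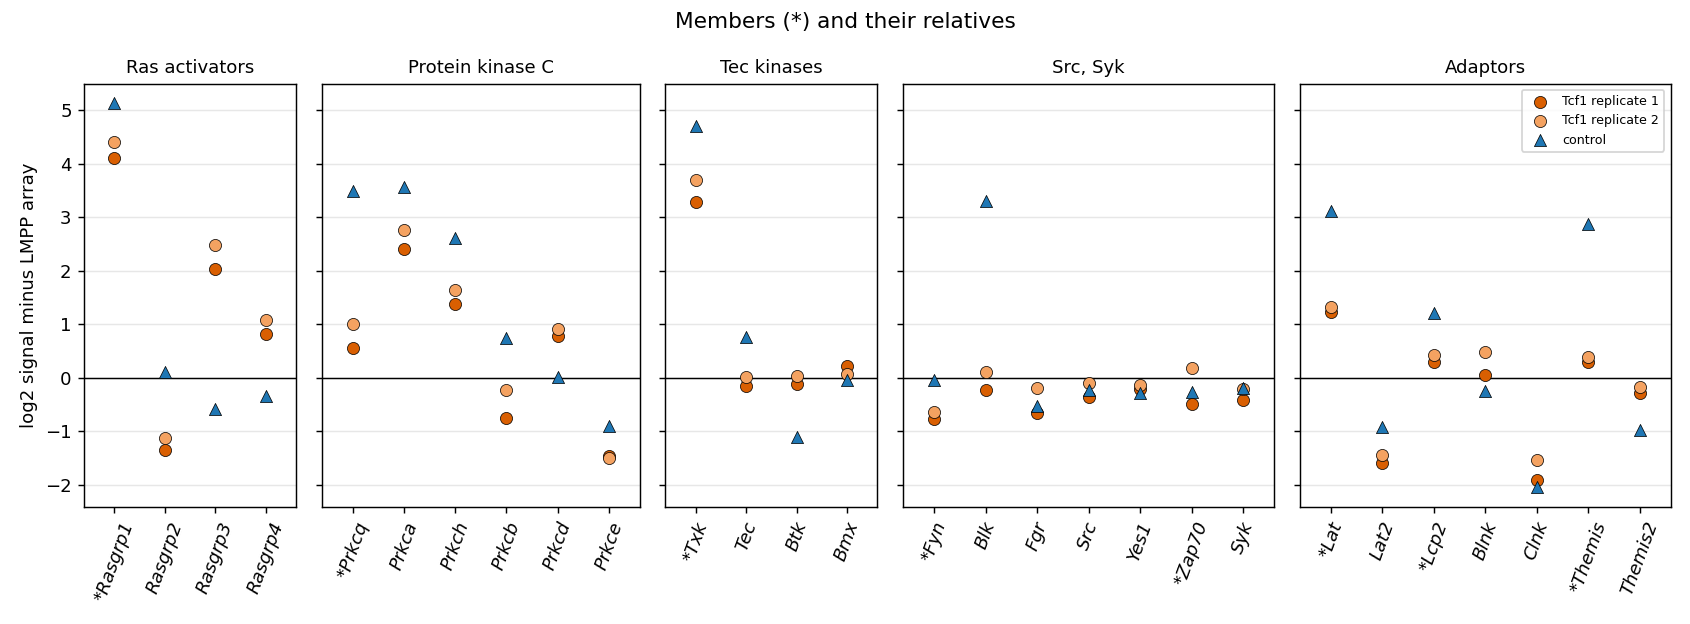
Log2 signal minus the LMPP array (vertical axis) for those of the genes described that have listed relatives (asterisks) and for these relatives, by family, on the 2 Tcf1 arrays (orange circles) and the control array (blue triangle). Rasgrp3 and Rasgrp4 lie above 0 on both Tcf1 arrays and below 0 on the control array, Blk is high on the control array alone, and Lat2 and Clnk lie below 0 on all 3.

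Markers of macrophages were higher in Tcf1 than in control cells, as were Rasgrp3, Rasgrp4, Prkcd and Btk. Of 7 macrophage markers, 4 rose from LMPPs, against 1.75% of all genes, and 6 were higher than in control cells, against 1.9% (limma). Adgre1, Lyz2 and Cybb were among them, and Marco (between 6.81 and 6.99 on the arrays) was not. Their summed linear signal was 3577 in LMPPs, 8781 and 11247 in Tcf1 cells and 1202 in control cells, with no marker at 0, and their part in the readings of Rasgrp3, Rasgrp4, Prkcd and Btk was not tested. Of 8 mast cell and basophil markers, 1 rose, 2 fell and 5 did not pass between LMPPs and Tcf1 cells, against 1.75% up and 1.31% down (limma). Their summed signal of 2381 in LMPPs, 3988 and 4674 in Tcf1 cells and 7322 in control cells was carried by Cpa3 in both cultures but not in LMPPs, while Fcer1a, Ms4a2 and Cma1 lay below the 25th percentile of genes on every array. Of 7 NK markers, 0 rose from LMPPs and 1, Eomes, fell, against 1.75% and 1.31% of all genes (limma). At an unadjusted p under 0.05, 2 of them were higher and 1 lower, against 5.33% and 9.22% of all genes (limma). Their sum was 914 in LMPPs, 758 and 850 in Tcf1 cells and 4071 in control cells, the last carried by Gzma, with Ncr1 and Klrb1c below the 25th percentile throughout. The 4 platelet markers, the 6 B cell markers and the 6 stroma markers had sums of 590 to 764, 725 to 1693 and 1314 to 1824. Of these, Fn1 rose and Cd79b fell from LMPPs to Tcf1 cells, while 4 of 4, 5 of 6 and 5 of 6 did not pass (limma). Against control cells, Mcpt8, Gzma, Cd79b and Pdgfrb were lower in Tcf1 cells and Fn1 was higher (limma). No other marker of the mast cell, NK, platelet, B cell and stroma lists passed there. Of all genes, 2.49% were lower and 1.9% higher. The part of such cells in the readings of Lat, Lcp2 and Prkcq, which some of them also use, was not tested.

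The wider pathway was read from lists. Of all genes, for comparison with each list, 1.75% rose and 1.31% fell from LMPPs to Tcf1 cells. Against control cells 1.9% were higher and 2.49% lower (limma, adjusted p under 0.05). Of 15 other adaptors, 5 rose from LMPPs to Tcf1 cells, 1 fell and 9 did not pass, and 7 were lower and 0 higher than in control cells (limma; 10 lower and 0 higher at an unadjusted p under 0.05). Their median differences were 0.27 and -0.90, beside 0.0047 and 0.02 for all genes. Nck2, a linker to the actin skeleton, read 7.57 in LMPPs, 9.72 and 10.09 in Tcf1 cells and 11.23 in control cells, and it rose by 2.33 (SE 0.20, adjusted p = 0.0021, limma). Sla2, an adaptor that dampens receptor signalling, rose by 2.24 (adjusted p = 0.00223, limma) and differed from control cells by -0.05, a difference that turned to 0.07 after renewed quantile normalization. Grap2, which links Lat to Lcp2, rose by 1.95 (adjusted p = 0.00219, limma), and Fyb, which binds Lcp2, rose by 1.70 (adjusted p = 0.00536, limma).

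Some adaptors were high in control cells and near the LMPP reading in Tcf1 cells, as Themis was. Sh2d2a, an adaptor that binds Lck, read 7.38 in LMPPs, 7.25 and 7.45 in Tcf1 cells and 10.08 in control cells, a difference of -2.73 between the cultures (SE 0.17, adjusted p = 0.000555, limma). Pag1, which recruits the inhibitory kinase Csk, was 1.80 lower than in control cells (adjusted p = 0.00276, limma), and its difference of -0.27 from LMPPs did not pass. Lax1, a negative regulator related in build to Lat, had a pattern of its own. It read 9.59 in LMPPs, 7.45 and 7.46 in Tcf1 cells and 9.61 in control cells, and it fell by 2.14 (SE 0.16, adjusted p = 0.00133, limma) while control cells stayed at the LMPP level.

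**Figure D5:**
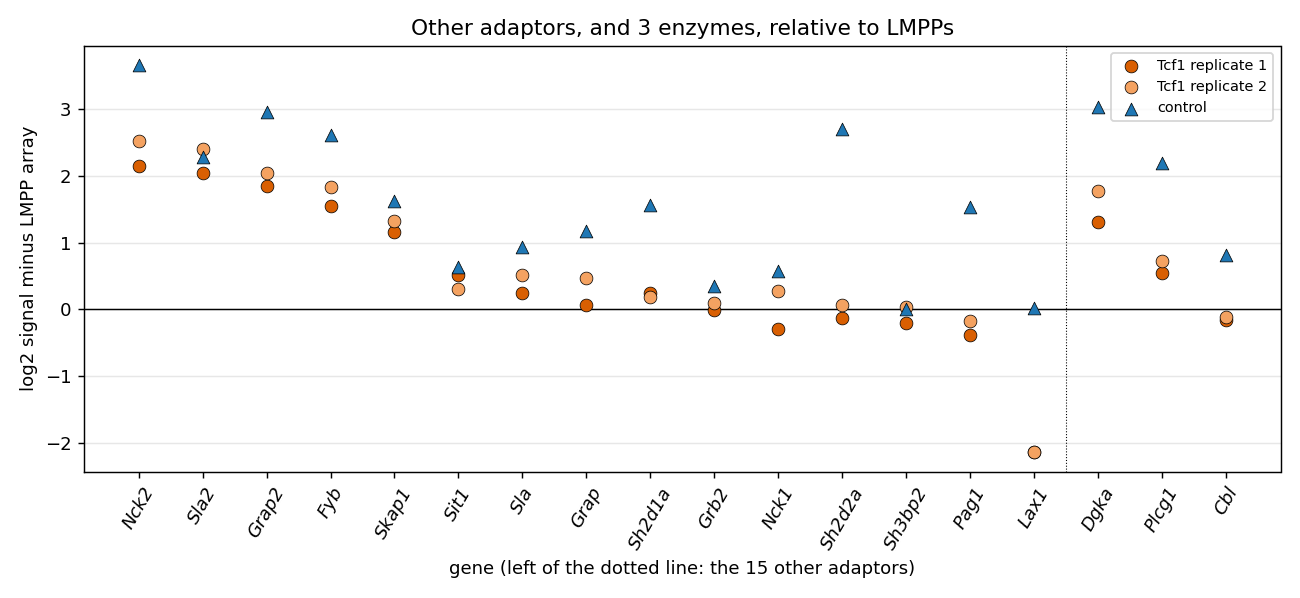
Log2 signal minus the LMPP array (vertical axis) for the 15 other adaptors and, right of the dotted line, 3 enzymes, on the 2 Tcf1 arrays (orange circles) and the control array (blue triangle). Nck2, Sla2, Grap2, Fyb and Skap1 lie above 0 in both cultures, Sh2d2a and Pag1 are high on the control array and near or below 0 on the Tcf1 arrays, and Lax1 is below 0 on both Tcf1 arrays and near 0 on the control array.

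Of 13 other kinases, phosphatases and regulators, 1 rose and 12 did not pass between LMPPs and Tcf1 cells, or 3 rose after renewed quantile normalization and 3 rose and 2 fell after median centring. The riser was Dgka, which removes the diacylglycerol that Rasgrp1 and Prkcq need. It read 9.17 in LMPPs, 10.48 and 10.95 in Tcf1 cells and 12.20 in control cells, rose by 1.54 (SE 0.22, adjusted p = 0.016, limma) and was 1.49 lower than in control cells (adjusted p = 0.0145, limma). Its order over the groups was that of Rasgrp1. Tec, Cbl and Dgka were the 3 genes of this list that were lower than in control cells.

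Of 13 effectors further down, such as Vav1, Nfatc1 and Orai1, 0 rose or fell from LMPPs to Tcf1 cells (limma; 1 higher at an unadjusted p under 0.05, and 1 after renewed quantile normalization). Plcg1, the phospholipase that Txk and its relatives activate, read 8.80 in LMPPs, 9.35 and 9.52 in Tcf1 cells and 11.00 in control cells. It was the effector lower in Tcf1 than in control cells, by 1.57 (SE 0.17, adjusted p = 0.00417, limma), or 1 of 2 after median centring. Of 12 receptor chains and coreceptors, 3 rose and 2 fell from LMPPs, and 6 were lower and 0 higher than in control cells (limma). At an unadjusted p under 0.05, 8 were lower than in control cells and 0 higher (limma). Those that fell were Cd28 (-1.52, adjusted p = 0.0318, limma) and Cd5 (-1.48, adjusted p = 0.00546, limma). The largest difference from control cells was that of Cd3g (-6.44, adjusted p = 7.3e-05, limma), which rose from LMPPs by 0.94. Cd247, the zeta chain to which Zap70 binds, read 7.23 in LMPPs, 8.69 and 9.08 in Tcf1 cells and 10.39 in control cells, an order like that of Lat and Trat1. Cd3e read 7.32, 7.45, 7.42 and 10.41, close to the order of Themis.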

How the data were processed

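RNA (250 ng per sample) was amplified, labelled and hybridised by the submitters, per the labels' protocols. The log2 values per probe set were deposited by the authors and made with RMA and Partek 6.5, per the submitters' processing notes; their parameters are not stated, and the log base was taken from RMA and the range of values. A genome build was not named in these sources. Of 35399 probe sets, 21789 carried a single symbol, 1621 several and 11989 none. The probe set with the highest mean was kept per gene, leaving 19938 genes without a filter on dim ones; each gene described had 1.

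Group means were fitted to all 4 arrays with limma 3.58.1 in R 4.3.3 (empirical Bayes, Benjamini-Hochberg adjustment over all genes, threshold 0.05). Residual degrees of freedom numbered 1, supplied by the Tcf1 replicates, with 5.78 added by the prior. Tested on simulated data, the fit found nearly all 4-fold changes but few 2-fold ones. More of its calls were false than the threshold states, most so at 2-fold. The simulation gave every array of a gene the same spread, drawn from the fit, and no array-wide shift, so its rates may not hold for these arrays. The genes, the lists and the alternatives were chosen with earlier results of these data known. Named genes are those described, their relatives, up to 4 genes past the test per other list and comparison, and up to 3 nearest profiles per gene. The p-values set each difference against the spread between the 2 Tcf1 samples, drawn toward a prior from all genes. The spread among LMPP or among control samples was not measured.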

Additional observations from a re-analysis of the deposited data

How the results depend on the processing

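The 4 genes that rose from LMPPs and the 6 that were lower than in control cells passed in the same direction after renewed quantile normalization, after median centring, over genes above the 25th percentile, with the mean of all probe sets of a gene and with a mean-dependent prior. Over all probe sets 0 genes passed in either comparison, so 0 of the 10 as well (limma; 3317 and 3702 with an unadjusted p under 0.05); the cause was not tested. Genes past the test against LMPPs numbered 610, or 1456 after median centring (41.7% higher instead of 57.2%), 1196 over genes above the 25th percentile (49.6% higher) and 936 with a mean-dependent prior. Against control cells they numbered 874, or 1646 after median centring and 1437 over genes above the 25th percentile. Control cells and LMPPs differed by at least 2-fold in 1102 genes, by 1.5-fold in 2694 and by 4-fold in 303.

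Without one Tcf1 replicate no residual degrees of freedom remain, so values have no test. Zap70 then ranged from -0.49 to 0.18 against LMPPs and from -0.23 to 0.44 against control cells, and Tespa1 from -0.14 to 0.01 against LMPPs (0.05 after renewed quantile normalization). Against LMPPs, Tec ranged from -0.14 to 0.03 (0.06 after renewed quantile normalization), Btk from -0.12 to 0.03 (0.07 after it), Sh2d2a from -0.14 to 0.06, Blk from -0.22 to 0.10 and Csf1r from -0.04 to 0.34. Against control cells, Sla2 ranged from -0.23 to 0.13 (0.07 after renewed quantile normalization), and Marco was -0.04 after that step and -0.01 after median centring. None of these values was past the test. Between 4 and 5 of the 10 genes were then at least 2-fold from LMPPs, beside 605 to 637 of all 19938 genes, and between 4 and 6 from control cells, beside 749 to 848. No paired analysis was possible because LMPPs and control cells have 1 array each and share fewer than 2 replicate numbers with the Tcf1 cells. Detection calls were not used here, and differences from a reading below the 25th percentile of genes, as for Trat1 and Themis in LMPPs, may be understated on arrays.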
